A study of Homo sapiens with 12 samples.

Results

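The 7 genes described here limit or tune the tumour suppressor p53: MDM2, MDM4, PPM1D, CCNG1, RCHY1, RFWD2 and TP53INP1. They were taken by symbol from the gene column of the deposited tables, 7 of 55737 gene rows, and all 7 were present with an adjusted p in each of the 4 tables. RNA was measured in the human skin fibroblast line HCA2 (MJ90), an established line carrying a doxycycline-inducible hairpin against luciferase (shLuc) or against FBXO22 (shFbxo22). Young cells were at low passage, and senescent cells had been irradiated with 10 Gy, which gave 4 groups of 3 libraries: shLuc young, shLuc senescent, shFbxo22 young and shFbxo22 senescent. The doxycycline dose, the time after irradiation and the number of hairpins per target are not given in the sources used here. FBXO22 is the substrate-binding subunit of a ubiquitin ligase, and the design asks how its hairpin changes the young and the senescent state.

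p53 is a transcription factor that halts the cell cycle after DNA damage, and in fibroblasts its activity is one of the routes into senescence. It switches on genes whose products then act back on it. MDM2 is a ubiquitin ligase that marks p53 for destruction, and MDM4 is its relative, which binds and silences p53 and pairs with MDM2. PPM1D (also WIP1) is a phosphatase that removes activating phosphates from p53 and from the damage kinases. CCNG1 encodes cyclin G1, which recruits a phosphatase to MDM2. RCHY1 (PIRH2) and RFWD2 (now named COP1) are further ubiquitin ligases that act on p53. TP53INP1 tunes in the other direction: its product promotes the activating phosphorylation of p53.

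The best known of these loops runs through the inner promoter of MDM2, so its sequence is shown first. The printed stretch holds the 250 bases before the inner RefSeq start site, which lies 845 bases downstream of the outer one. It falls in the first intron of 7 of the 34 MDM2 transcripts in GENCODE 29, overlaps an exon of 1 and lies before the start of the other 26. Capitals mark matches to the tandem p53 consensus element, which is 20 bases long without a gap and reads the same on both strands, with at most 3 mismatches.
MDM2 inner promoter, GRCh38.p14 chr12:68808767-68809016, plus strand: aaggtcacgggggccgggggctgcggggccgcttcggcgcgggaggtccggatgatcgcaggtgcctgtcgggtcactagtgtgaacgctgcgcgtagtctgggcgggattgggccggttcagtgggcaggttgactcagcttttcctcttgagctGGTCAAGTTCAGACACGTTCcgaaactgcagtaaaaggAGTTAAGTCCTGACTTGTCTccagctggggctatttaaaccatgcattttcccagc
The upstream match (chr12:68808923-68808942) has 2 mismatches and ends 75 bases before the start site. The downstream match (chr12:68808961-68808980) has 3 mismatches and ends 37 bases before it. Of 35116 RefSeq windows of this length, 4.36% held a match at this tolerance, 0.231% held 2 or more and 0.561% held one with at most 2 mismatches. RefSeq windows were found for 6 of the 7 genes. The windows of MDM4, PPM1D, CCNG1, RCHY1 and RFWD2 held no match at this tolerance, and their closest stretches had between 4 and 7 mismatches. A match is a stretch of letters and was not measured as a bound site, and its absence says only that these letters are not in that window.

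The deposited tables give, for each gene, a base mean (mean normalized count over the 6 libraries of a comparison) and a log2 fold change with its standard error. Values of single libraries were not analysed here. Group levels below were therefore rebuilt from base mean and fold change, once from each of the 2 tables that hold a group, and are printed as the mean of both estimates. The tables do not name the numerator of a fold change. The sign that makes the rebuilt levels meet was used, which turns the sign of the shFbxo22 senescence table and of the senescent hairpin table. With it, the 2 estimates of a level differed by at most 8.12% among the 7 genes. The labels do not call the 3 libraries of each group separate cultures. The p-values then measure only how far these libraries spread, and that spread may be technical.

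The hairpin's own target and the cell type were checked first. FBXO22 was lower with its hairpin in young cells (log2 fold change -0.81 ± 0.15, standard error, adjusted p = 1.07e-06 in the authors' deposited table). It was higher in the libraries labelled shFbxo22 senescent than in senescent shLuc libraries (1.01 ± 0.12, adjusted p = 7.91e-15 in the authors' deposited table, sign turned). Directions for that group are therefore given for its label. Fibroblast markers were abundant, with a summed level between 588068 and 679754 normalized counts for 14 genes in the 4 groups. The summed level was between 76.3 and 253 for 8 keratinocyte markers, 28.2 and 38.7 for 6 melanocyte markers, 97.9 and 582 for 6 endothelial markers and 21.8 and 52.0 for 7 immune markers. The endothelial and keratinocyte sums were highest in shLuc young libraries, and the immune sum was higher with shFbxo22 than with shLuc in both states. These low sums are loosely set and were not tested. The 2 estimates of the endothelial sum in shFbxo22 young were 191 and 354. In the shLuc senescence comparison KDR alone gave 374 of a summed base mean of 460 for endothelial markers. There 6 of the 7 immune markers had base means below 10.

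MDM2 spanned the widest range of the 7 genes. Its level was 799 normalized counts in shLuc young, 1007 in shLuc senescent, 3307 in shFbxo22 young (3441 and 3173 from the 2 tables) and 35935 in libraries labelled shFbxo22 senescent. The highest group stood 45.0-fold above the lowest. TP53INP1 had the next widest range, with levels of 150, 588, 981 and 3775 normalized counts in the same order of groups, a span of 25.1-fold. PPM1D was at 195 and 207 normalized counts with shLuc, young and senescent, and at 380 and 1039 with shFbxo22. CCNG1 climbed in smaller steps, from 1636 to 2319, 3429 and 6563 normalized counts in that order.

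The other 3 genes moved little. MDM4 was the one member with its lowest levels in the shFbxo22 groups: 687 normalized counts in shLuc young, 811 in shLuc senescent, 506 in shFbxo22 young and 493 in libraries labelled shFbxo22 senescent. RCHY1 lay between 169 and 236 normalized counts and RFWD2 between 550 and 766, each lowest in shLuc young and highest in libraries labelled shFbxo22 senescent. Levels of different genes are not comparable with each other, since they are not corrected for transcript length. In bulk RNA, a change in the share of responding cells and a change per cell cannot be told apart.

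**Figure D1:**
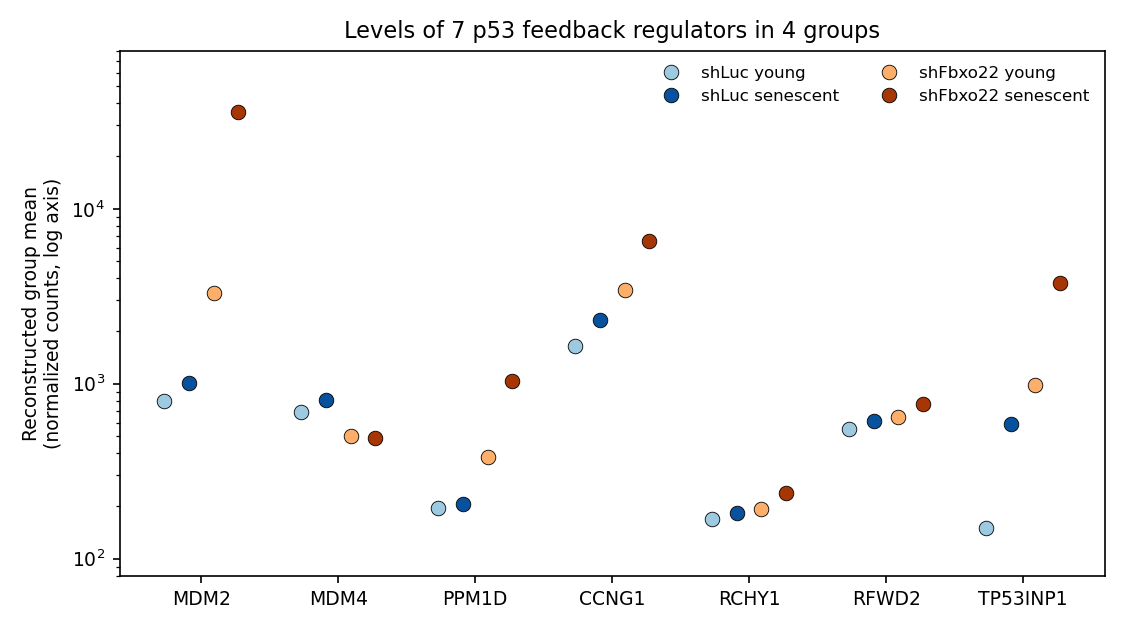
Rebuilt group means of the 7 genes (vertical log axis, normalized counts) in the 4 groups, each point the mean of 2 estimates with no error of its own. MDM2 runs from 799 to 35935 and TP53INP1 from 150 to 3775, while MDM4 is lowest in the shFbxo22 groups.

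With the control hairpin, radiation-induced senescence brought a rise in 3 of the 7 genes and a fall in none, where 42.6% of all 21889 tested genes passed in either direction and 21.2% passed as higher (Wald test, adjusted p threshold 0.05). TP53INP1 rose most, with a log2 fold change of 1.97 ± 0.15, 3.93-fold (adjusted p = 1.03e-39 in the authors' deposited table). CCNG1 rose with 0.50 ± 0.11, 1.41-fold (adjusted p = 4.44e-05), and MDM2 with 0.32 ± 0.10, 1.25-fold (adjusted p = 0.00552), in the authors' deposited table. Among all tested genes, 7003 had a higher fold change than MDM2 and 453 a higher one than TP53INP1. MDM4 was at 0.24 ± 0.11 (adjusted p = 0.0812) and PPM1D at 0.08 ± 0.16 (adjusted p = 0.758) in the authors' deposited table, and neither passed. Nor did RFWD2 and RCHY1, which the authors' deposited table gives at 0.16 ± 0.13 and 0.10 ± 0.19. Their 95% intervals ran from -0.10 to 0.41 and from -0.28 to 0.49. With Bonferroni adjustment only TP53INP1 remained called here.

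In the libraries labelled shFbxo22, senescence brought a rise in 4 of the 7 genes and a fall in none, where 17.7% of 18758 tested genes passed in either direction and 8.16% as higher. MDM2 rose with 3.38 ± 0.12, 10.4-fold (adjusted p = 1.54e-180 in the authors' deposited table), the sixth highest fold change of all tested genes there. TP53INP1 rose with 1.91 ± 0.12 (adjusted p = 1.78e-58), and PPM1D with 1.42 ± 0.13 (adjusted p = 2.44e-26), in the authors' deposited table. CCNG1 rose with 0.92 ± 0.11, 1.89-fold (adjusted p = 2.49e-14 in the authors' deposited table). For the other 3 genes the authors' deposited table has RCHY1 at 0.29 ± 0.16, RFWD2 at 0.24 ± 0.12 and MDM4 at -0.04 ± 0.13, none of which passed (adjusted p = 0.263, 0.203 and 0.9). As lower, 9.57% of all genes passed in this comparison.

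Before any irradiation, 5 of the 7 genes already differed between the hairpins, where 35.9% of 20082 genes passed in either direction, 18.7% as higher and 17.3% as lower. TP53INP1 stood above its shLuc level by 2.66 ± 0.15 on the log2 scale, 6.31-fold (adjusted p = 2.03e-67 in the authors' deposited table). MDM2 was higher with 1.98 ± 0.10, 3.95-fold (adjusted p = 6.76e-80), and CCNG1 with 1.05 ± 0.11, 2.06-fold (adjusted p = 6.16e-19), in the authors' deposited table. PPM1D was higher with 0.92 ± 0.16 (adjusted p = 2.12e-07), and MDM4 lower with -0.44 ± 0.13 (adjusted p = 0.0021), in the authors' deposited table. As for the ligases, the authors' deposited table has RFWD2 at 0.22 ± 0.14 and RCHY1 at 0.16 ± 0.18, neither past the threshold. With Bonferroni adjustment, MDM4 no longer passed.

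In senescent cells the hairpins differed for 6 of the 7 genes, where 40.1% of 22788 genes passed in either direction, 20.2% as higher and 19.9% as lower. MDM2 stood 5.14 ± 0.11 higher on the log2 scale in the libraries labelled shFbxo22, 35.2-fold (adjusted p listed as 0 in the authors' deposited table), and 18 of all tested genes had a higher fold change. TP53INP1 was higher with 2.67 ± 0.10, 6.37-fold (adjusted p = 1.38e-144), and PPM1D with 2.32 ± 0.12 (adjusted p = 1.12e-83), in the authors' deposited table. CCNG1 was higher with 1.49 ± 0.11 (adjusted p = 1.62e-37), and RFWD2 with 0.31 ± 0.11, 1.24-fold (adjusted p = 0.0136), in the authors' deposited table. MDM4 was lower with -0.72 ± 0.11, 1.65-fold (adjusted p = 8.84e-10 in the authors' deposited table). RCHY1 at 0.37 ± 0.18 did not pass (adjusted p = 0.0934 in the authors' deposited table), with an interval from 0.01 to 0.72. The call on RFWD2 was lost with Bonferroni adjustment. Well measured genes passed more often: at a base mean of 200 or more the share past the threshold was 64.5% in shLuc senescence, 24.9% in that of shFbxo22, 50% between the hairpins in young cells and 59.9% in senescent cells.

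**Figure D2:**
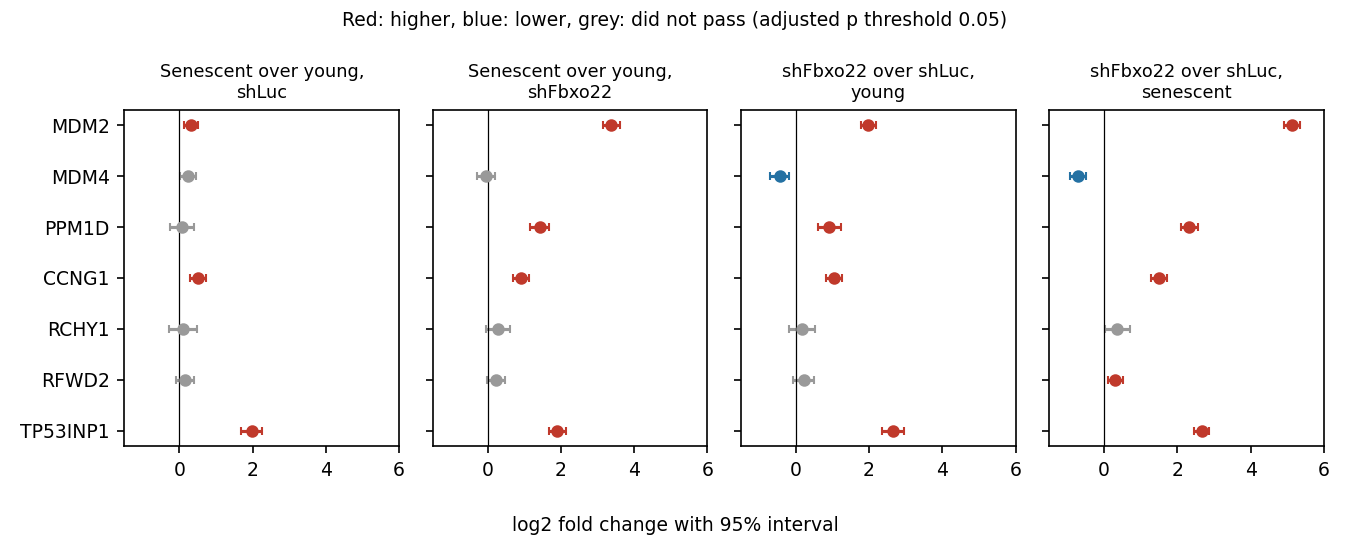
Log2 fold changes (horizontal axis) of the 7 genes in the 4 deposited comparisons, with 95% intervals of 3 libraries against 3. Red points passed as higher, blue as lower and grey did not pass; MDM2 moves from 0.32 in shLuc senescence to 5.14 between the hairpins in senescent cells, and MDM4 alone is blue.

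Whether senescence moved a gene differently under the 2 hairpins was tested from the 2 senescence tables, which share no library. The difference of the 2 log2 fold changes, shFbxo22 minus shLuc, was divided by its combined standard error, and the normal p of this z was adjusted by Benjamini and Hochberg's method over 18598 genes. Of the 7 genes 3 passed, all with the larger rise under shFbxo22, where 37% of all genes passed in either direction and 18.8% in that one. For MDM2 the difference was 3.06 ± 0.16 (adjusted p = 3.07e-84), an 8.36-fold larger rise, and 64 of all tested genes had a higher difference. PPM1D differed by 1.34 ± 0.21 (adjusted p = 1.51e-09), since it passed as higher under shFbxo22 and was near 0 under shLuc. CCNG1 differed by 0.42 ± 0.16 (adjusted p = 0.027), and this call was lost with Bonferroni adjustment.

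For TP53INP1 the 2 senescence responses, 1.97 and 1.91 in the authors' deposited tables, gave a difference of -0.07 ± 0.19 (adjusted p = 0.824), with an interval from -0.43 to 0.30. MDM4 (-0.28 ± 0.17, adjusted p = 0.201), RFWD2 (0.08 ± 0.18) and RCHY1 (0.18 ± 0.25) did not pass. The authors' fold changes were moderated towards 0, and by different amounts: the largest standard error was 0.697 in the shLuc senescence table and 0.333 in that of shFbxo22. The same difference taken from the 2 hairpin tables was 3.16 ± 0.15 for MDM2, 1.40 ± 0.20 for PPM1D, 0.45 ± 0.16 for CCNG1 and 0.02 ± 0.18 for TP53INP1. It is the same contrast from the same libraries, with signs chosen so that the tables meet, and so is not a second measurement.

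**Figure D3:**
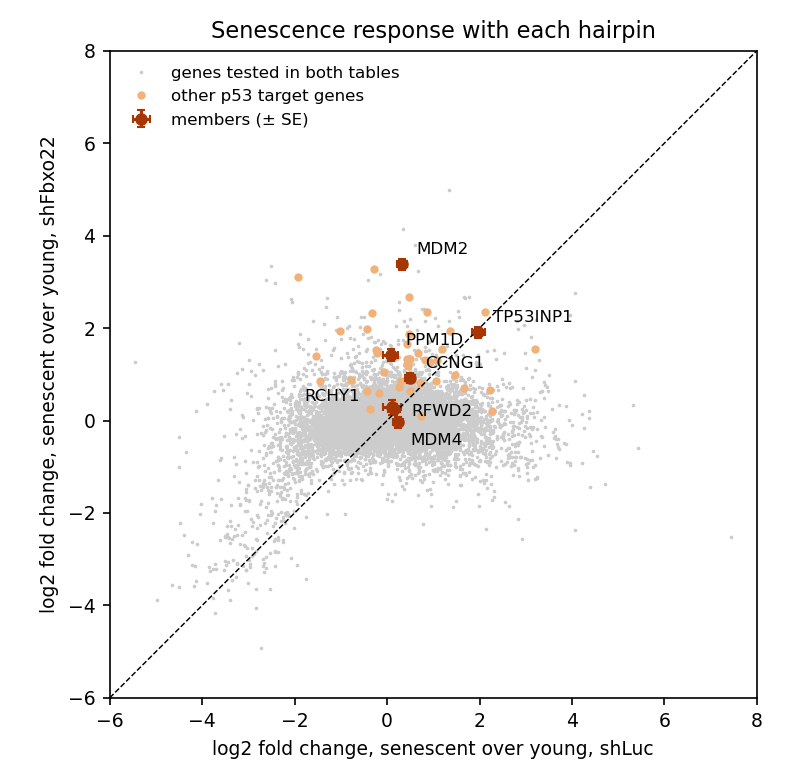
Senescence response (log2 fold change) under shFbxo22 (vertical axis) against that under shLuc (horizontal axis), for genes tested in both tables (grey), other p53 targets (orange) and the 7 genes (red-brown, bars are standard errors). The dashed line marks equal responses; TP53INP1 lies on it at 1.97 and 1.91, and MDM2 and PPM1D lie above it.

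No table sets young shFbxo22 cells against senescent shLuc cells. This contrast was summed along 2 paths through another group, with summed standard errors that overstate the true error. A gene was called only where both paths passed in 1 direction, as did 25.8% of 18537 genes, 13.6% as higher and 12.2% as lower. Of the 7 genes 5 were called. MDM2 was higher in young shFbxo22 than in senescent shLuc libraries, by 1.66 ± 0.15 and 1.76 ± 0.16 along the 2 paths (adjusted p = 2.36e-28 and 2.33e-25). TP53INP1 was higher by 0.68 ± 0.21 and 0.77 ± 0.16, PPM1D by 0.84 ± 0.23 and 0.90 ± 0.17, and CCNG1 by 0.55 ± 0.16 and 0.58 ± 0.16. MDM4 was lower, by -0.68 ± 0.17 along both paths (adjusted p = 0.000542 and 0.000415). RCHY1 and RFWD2 were within 0.08 of 0 and did not pass. With Bonferroni adjustment on both paths, only MDM2 remained called.

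The libraries labelled shFbxo22 senescent were set over shLuc young in the same way, where 29.7% of 18537 genes passed, 15.6% as higher and 14% as lower. The same 5 members were called. MDM2 was higher by 5.45 ± 0.15 and 5.36 ± 0.16, and TP53INP1 by 4.65 ± 0.18 and 4.56 ± 0.19. PPM1D was higher by 2.40 ± 0.20 and 2.34 ± 0.21, CCNG1 by 1.99 ± 0.16 and 1.96 ± 0.16, and MDM4 was lower by -0.49 ± 0.16 and -0.49 ± 0.18. RFWD2, at 0.47 ± 0.17 and 0.46 ± 0.19, passed along the first path only (adjusted p = 0.0241 and 0.0518), and RCHY1 passed along neither. Placed in order, all neighbouring groups of MDM2, CCNG1 and TP53INP1 differed past the threshold, from shLuc young through shLuc senescent and shFbxo22 young to shFbxo22 senescent. For PPM1D the 2 shLuc groups did not differ past it. For MDM4 the 2 shLuc groups did not, nor did the 2 shFbxo22 groups, and for RCHY1 and RFWD2 no neighbours did.

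CDKN1A, the p53 target that encodes the cell cycle inhibitor p21, ranked the 4 groups as MDM2 did, from 703 normalized counts in shLuc young to 3065, 16560 and 85966. It rose in both senescence comparisons, with 2.12 ± 0.10 for shLuc and 2.34 ± 0.10 for shFbxo22 in the authors' deposited tables. The difference of 0.22 ± 0.14 did not pass (adjusted p = 0.22), with an interval from -0.05 to 0.49.

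The remaining p53 targets, 42 genes from a list chosen with earlier results of these data known, give the setting for the 7 genes. CDKN1A and FBXO22 are among the 42. In shLuc senescence 21 of 41 tested rose and 7 fell, and the median was 0.46 on the log2 scale, against -0.0031 over all genes tested. In shFbxo22 senescence 38 of 42 rose and none fell, with a median of 1.31, and MDM2 lay above all of them. Between the hairpins 34 of 41 were higher and 2 lower in young cells (median 1.14), and 39 of 42 higher and 1 lower in senescent cells (median 2.36). Of all genes, 21.2% passed as higher in shLuc senescence and 8.16% in that of shFbxo22. Between the hairpins 18.7% passed as higher in young cells and 20.2% in senescent cells. In senescent cells 5 of the 42 had a higher fold change than MDM2, 20 a higher one than TP53INP1, 21 than PPM1D and 27 than CCNG1. All 42 lay above MDM4. The highest were SPATA18, a mitochondrial quality control gene, at 6.77 ± 0.19 and the ceramidase gene ACER2 at 6.36 ± 0.32 in the authors' deposited table. The lowest that passed were DDIT4, an inhibitor of mTORC1, at -0.28 ± 0.10 and PERP, a desmosome gene, at 0.33 ± 0.10 in the authors' deposited table.

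Partners of MDM2 and MDM4 moved without a common direction. Of 22 such genes 8 rose and 7 fell in shLuc senescence, and 2 rose and 2 fell in that of shFbxo22. Between the hairpins 4 were higher and 8 lower in young cells, and 4 higher and 3 lower in senescent cells, with medians between -0.06 and 0.10 in the 4 comparisons. Of all genes, 42.6% passed in either direction in shLuc senescence and 17.7% in that of shFbxo22. Between the hairpins 35.9% passed in young cells and 40.1% in senescent cells. In that order, the shares at a base mean of 200 or more were 64.5%, 24.9%, 50% and 59.9%. CDKN2A, whose ARF product inhibits MDM2, rose in shLuc senescence with 0.66 ± 0.13 and fell in that of shFbxo22 with -0.44 ± 0.15 (adjusted p = 1.07e-06 and 0.0259) in the authors' deposited tables. In senescent cells it was lower in the libraries labelled shFbxo22, with -1.63 ± 0.14 (adjusted p = 1.05e-30 in the authors' deposited table). Counts per gene do not separate ARF from p16, the other product of CDKN2A.

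USP7, a deubiquitinase of MDM2 and p53, fell in shLuc senescence with -0.48 ± 0.09 (adjusted p = 1.53e-06) and was at 0.07 ± 0.10 in that of shFbxo22 in the authors' deposited tables. USP10, another p53 deubiquitinase, was higher in the libraries labelled shFbxo22 senescent with 0.40 ± 0.09, and RPS27L, a p53-inducible ribosomal protein gene, with 1.74 ± 0.09, in the authors' deposited table. GNL3 (nucleostemin), which binds MDM2, was lower there with -0.48 ± 0.10 in the authors' deposited table. USP10 fell in shLuc senescence with -0.73 ± 0.09 (adjusted p = 4.55e-15) and was at -0.09 ± 0.09 in that of shFbxo22 in the authors' deposited tables.

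Other ubiquitin ligases and ligase parts that act on p53 gave, of 21 genes, 6 higher and 7 lower in shLuc senescence, 2 and 2 in shFbxo22 senescence, 4 and 3 between the hairpins in young cells and 5 and 2 in senescent cells. Their medians lay between -0.04 and 0.02. In the same order of comparisons, 42.6%, 17.7%, 35.9% and 40.1% of all genes passed in either direction. At a base mean of 200 or more these shares were 64.5%, 24.9%, 50% and 59.9%. SKP2, the substrate receptor of an SCF ligase, was higher in the libraries labelled shFbxo22 senescent with 1.38 ± 0.11, and the ligase gene WWP1 with 1.21 ± 0.11, in the authors' deposited table. DTL, a substrate receptor for replication proteins, was lower there with -2.92 ± 0.21, and TRIM28 with -0.30 ± 0.10, in the authors' deposited table. SKP2 itself fell in senescence with both hairpins, at -1.92 ± 0.11 for shLuc and -0.52 ± 0.10 for shFbxo22 in the authors' deposited tables.

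Relatives of the 7 genes did not all move as the members did. CCNG2, the cyclin most like CCNG1, rose in shLuc senescence with 1.52 ± 0.13 (adjusted p = 1.11e-32) and was at 0.27 ± 0.14 in that of shFbxo22 in the authors' deposited tables. Between the hairpins CCNG2 was higher with shFbxo22 in young cells (0.91 ± 0.15) and lower in senescent ones (-0.32 ± 0.12, adjusted p = 0.0292) in the authors' deposited tables. TP53INP2, an autophagy gene related to TP53INP1, was higher with shFbxo22 in both states, with 1.29 ± 0.13 and 0.80 ± 0.11 in the authors' deposited tables. It rose in shLuc senescence with 0.53 ± 0.13 and was at 0.02 ± 0.12 in that of shFbxo22 in the authors' deposited tables. PPM1K, a mitochondrial phosphatase of the same family as PPM1D, rose in shLuc senescence with 1.88 ± 0.14 and was lower in the libraries labelled shFbxo22 senescent with -1.42 ± 0.13 in the authors' deposited tables. PPM1H of that family passed in the same comparisons as PPM1D. The authors' deposited tables have it higher with shFbxo22 in young (1.13 ± 0.21) and senescent cells (1.15 ± 0.18). It rose in shFbxo22 senescence with 0.49 ± 0.16 and did not pass in that of shLuc (0.52 ± 0.24) in the authors' deposited tables. In the z test described above, the senescence responses of PPM1H differed by -0.03 ± 0.29 (adjusted p = 0.952), those of PPM1D by 1.34. Of the 28 relatives and partners, 12 rose and 7 fell in shLuc senescence, and 2 of 27 tested rose and 1 fell in that of shFbxo22. With shFbxo22, 10 of 27 were higher and 5 lower in young cells, and 10 of 28 higher and 8 lower in senescent cells. In the same order of comparisons, 42.6%, 17.7%, 35.9% and 40.1% of all genes passed in either direction. The shares at a base mean of 200 or more were those given above for the ligases.

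Of 19 kinases of the p53 damage response 12 fell and 2 rose in shLuc senescence (median -0.63), where 21.3% of all genes passed as lower. With shFbxo22 12 were lower and 3 higher in young cells (median -0.64), where 17.3% of all genes passed as lower. In shFbxo22 senescence 5 fell and 3 rose (median 0.0054), where 9.57% of all genes passed as lower. Between the hairpins in senescent cells 5 were lower and 7 higher (median -0.09), against 19.9% and 20.2% of all genes. At a base mean of 200 or more, the shares passing in either direction were those given above for the ligases. The list includes mitotic kinases such as PLK1, at -4.65 ± 0.13 in shLuc senescence in the authors' deposited table, and TTK, at -3.05 ± 0.15 there. PLK3, a stress-responsive kinase, was higher in the libraries labelled shFbxo22 senescent with 1.70 ± 0.12, as was NUAK1 with 1.14 ± 0.11, in the authors' deposited table. NUAK1 fell in shLuc senescence with -0.82 ± 0.12 and was at 0.0054 ± 0.11 in that of shFbxo22 in the authors' deposited tables. Among 17 enzymes that acetylate or methylate p53 or reverse these marks, 6 fell and 3 rose in shLuc senescence, and 1 fell and none rose in that of shFbxo22. With shFbxo22, 6 were lower and 1 higher in young cells, and 7 lower and 2 higher in senescent cells. The shares of all genes passing as lower were those given above for the kinases. EHMT2, a lysine methyltransferase, was lowest among the 17 enzymes in senescent cells at -0.62 ± 0.11 in the authors' deposited table.

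Cell division genes, which p53 represses through p21, were highest in shLuc young libraries. Their summed level over 12 genes was 47865 normalized counts in shLuc young, 5341 in shLuc senescent, 11153 in shFbxo22 young and 4586 in libraries labelled shFbxo22 senescent. All 12 fell in shLuc senescence and all 12 were lower with shFbxo22 in young cells, where 21.3% and 17.3% of all genes passed as lower. In shFbxo22 senescence 11 fell and PCNA, a replication clamp that p53 can induce, rose with 1.10 ± 0.09 in the authors' deposited table. Between the hairpins in senescent cells 10 were lower in the libraries labelled shFbxo22, while PCNA was higher. The part of cell division in the levels of the 7 genes was not tested.

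**Figure D4:**
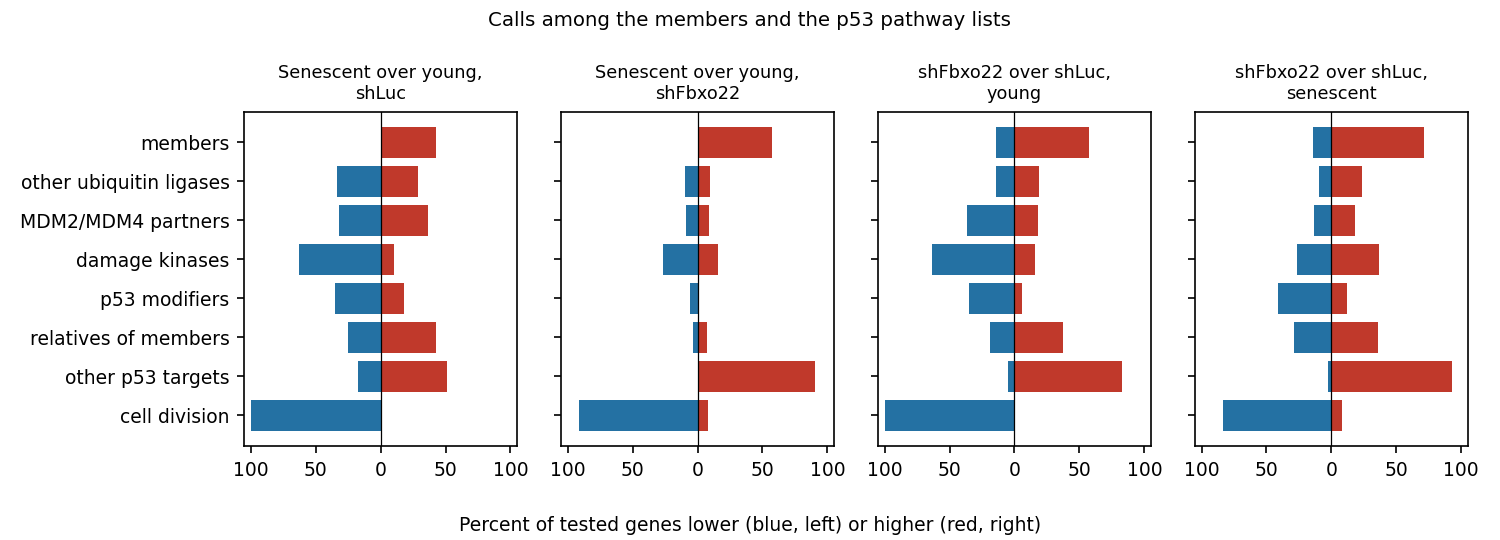
Percent of tested genes that passed as higher (red, right) or lower (blue, left) in each deposited comparison, for the 7 genes and the p53 pathway lists. Of the other p53 targets 38 of 42 rose in shFbxo22 senescence against 21 of 41 in that of shLuc; in shFbxo22 senescence 4 of 21 ligases and 4 of 22 partners passed, where 17.7% of all genes did.

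Genes with the most similar pattern were sought among the genes that in all 4 tables had an adjusted p and a base mean of 200 or more (9103 or 9104 candidates), by the root mean square difference of their 4 log2 fold changes. The nearest to MDM2 was TP53I3 at 0.67, followed by ZMAT3 at 1.38, PAPPA at 1.39 and INHBA at 1.59. The latter genes resemble MDM2 only loosely. In shFbxo22 senescence ZMAT3, PAPPA and INHBA were at 1.46, 1.20 and 1.17, and MDM2 at 3.38, in the authors' deposited table. INHBA fell in shLuc senescence, at -1.41 in the authors' deposited table, where MDM2 rose. TP53I3 was at -0.28 in shLuc senescence, 3.29 in that of shFbxo22, 0.94 between the hairpins in young cells and 4.57 in senescent cells in the authors' deposited tables. PPM1D was nearest to APOBEC3C at 0.19, DGKA at 0.20, MAST4 at 0.21 and RRM2B at 0.21. CCNG1 was nearest to RGL1 at 0.10, NADSYN1 and PLK3 at 0.13 and PHLDA3 at 0.18. TP53INP1 was nearest to FAM198B at 0.41, FAS at 0.73, ZMAT3 at 0.76 and SULF2 at 0.76. MDM4, with small changes, was nearest to RPS7P1 at 0.03 and to GTF2IRD1, CIC and ARID1B at 0.04. The 4 comparisons share groups of libraries, so these distances are descriptions.

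Some reads of 2 members could belong to a neighbour, as the strand used in counting is not given in the sources used here. In GENCODE 29, exons of MDM2 share up to 133 bases with CPM on the other strand, and those of RCHY1 up to 303 bases with THAP6. CPM moved against MDM2 in the libraries labelled shFbxo22 senescent over senescent shLuc (-0.75 ± 0.14) and in shFbxo22 senescence (-0.90 ± 0.14). It did not pass in shLuc senescence (0.02 ± 0.13) or between the hairpins in young cells (0.20 ± 0.14) in the authors' deposited tables. THAP6 passed between the hairpins in senescent cells (0.36 ± 0.15) and in shFbxo22 senescence (0.53 ± 0.15) in the authors' deposited tables. In the other comparisons THAP6 did not pass. Exons of MDM2 also share up to 439 bases with a processed pseudogene and up to 401 with an antisense gene. CCNG1P1 and RFWD2P1, pseudogenes of 2 other members, had base means of at most 27.1 and 28.6.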

How the data were processed

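RNA libraries of 4 groups of 3 were compared through 4 tables of the authors' own comparisons. Per the labels' protocols, RNA came from RNeasy columns and libraries from an Ion Total RNA-Seq kit. Per the submitters' processing notes, the builds were hg19 and GRCh37, and the tools were R 3.2.2, DESeq2 1.14.1, STAR 2.3.0 and Bowtie2 2.0.0; their roles are not given in the sources used here. The authors deposited a base mean, which is a signal in normalized counts, with no counts per library, so the depth per library is unknown. Per the file headers the authors deposited a log2 fold change with its standard error, the Wald score, and the p-value with its adjusted p-value, which came from DESeq2. These adjusted p-values are the main results, with a threshold of 0.05 over all genes the authors adjusted.

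Of the 55765 rows of each table, 28 held dates in place of symbols and were left out. Of 16 sign choices, the one used gave a mean absolute log2 gap of 0.0092 between the 2 estimates of group means over 9109 genes whose base mean was 200 or more, against 0.1306 for the next. It leaves as deposited the signs of shLuc senescence and of the hairpins in young cells. Differences and sums of fold changes were tested as normal z values in Python 3.11.15 with scipy 1.17.1. The tests were also run on simulated data, whose noise was normal with the authors' standard errors. Such data cannot show whether those errors hold, and paths through a shared group were not simulated. The 7 genes and all lists were chosen with earlier results of these data known. Named in the text are the 7 members, CDKN1A, CDKN2A, USP7 and FBXO22, genes of the lists at either end of the senescent hairpin comparison among those past the threshold, relatives of members, and the 4 genes nearest to each member. A further gene that this rule names is not reported here. SUSD6 and TIGAR were matched through older symbols, and PECAM1 of the endothelial list was not used here. Alternatives were other adjustments, a base mean of at least 100, an absolute log2 fold change of at least 0.5, centring on the median, and other tables or paths.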

Additional observations from a re-analysis of the deposited data

Results flagged for a closer look

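The senescence response of 3 members differed between the hairpins in the test of the difference itself. On the log2 scale, shFbxo22 minus shLuc, the difference was 3.06 for MDM2, 1.34 for PPM1D and 0.42 for CCNG1, with 37% of all 18598 genes past the same threshold. Among the other core genes of the pathway it was -1.11 for CDKN2A (adjusted p = 2.71e-07) and 0.56 for USP7 (adjusted p = 0.000308). FBXO22, the target of the hairpin, differed by 1.77 (adjusted p = 2.03e-18), with levels of 438 and 371 normalized counts in young and senescent shLuc libraries and 254 and 746 in those labelled shFbxo22.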

How the results depend on the processing

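No paired analysis was possible because values of single libraries were not used here, and for the same reason fits without each library were not run. Of 31 recounts of called members, 28 stayed within 1.5 times the reported count. In shLuc senescence 1 of 7 genes was called with Bonferroni adjustment and 1 with an absolute log2 fold change of at least 0.5, where 3 were reported. MDM2 and CCNG1 dropped out in both: their adjusted p was 1 and 0.225 with Bonferroni adjustment, and their log2 fold changes of 0.32 and 0.499 lie below 0.5. In shFbxo22 young over shLuc senescent, 1 gene was called with Bonferroni adjustment on both paths, where 5 were reported. Only centring and the use of the hairpin tables alter a member's fold change, so its direction was fixed under the other settings. The hairpin tables give the same contrast from the same libraries, so agreement there was also largely built in. Bonferroni adjustment and the minimum fold change can only remove calls. Much of the agreement among single values was therefore set in advance. Of 175 values of single members, 165 kept their direction and their side of the threshold, 9 fell short of it and 1 changed sign. The last is the TP53INP1 difference of senescence responses, past the threshold in neither, which was -0.07 as reported and 0.015 from the 2 hairpin tables. The 9 were MDM2 and CCNG1 in shLuc senescence, MDM4 between the hairpins in young cells, and RFWD2 between them in senescent cells, each under both settings named above, and the CCNG1 difference with Bonferroni adjustment. Centring on the median, the low-value filter and adjustment over every gene with a p ended no call. Each of 56 group levels from a single table differed from the printed mean, on the log2 scale, by less than the standard error of that table's fold change. Both estimates of a level come from the same libraries and enter the mean, so this agreement does not give the error of a level. Depth limits RCHY1 most, with base means between 175 and 214.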

Other observations

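Genes nearest in pattern were also listed for RCHY1 and RFWD2, the 2 ligase genes with few or no calls. The nearest to RCHY1 were ZNF746 and OST4, both at a root mean square log2 difference of about 0.01, RC3H1 at 0.02 and PPP2R2A at 0.03. RFWD2 was nearest to PRDX4 at 0.01, CTNNBIP1 and BBIP1 at 0.02 and FAM188A at 0.03.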
